A study of Mus musculus with 6 samples.

Results

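The genes examined here encode 8 core pluripotency factors: Pou5f1, Sox2, Nanog, Klf4, Esrrb, Tfcp2l1, Zfp42 and Tet1. They were taken by name from 21853 mouse protein-coding genes of GENCODE M21 (build GRCm38), and all 8 were found. For each gene, the intervals deposited for HA-tagged Tex10 and for trimethylated lysine 4 of histone H3 (H3K4me3) were read in 2 windows: within 1 kb of a transcription start site (TSS), and in the gene body plus 20 kb on each side. The ChIP-seq samples came from day 2 primordial germ cell-like cells, or PGCLCs, a culture model of the precursors of eggs and sperm. There were 2 samples with an antibody to the HA tag, 2 with an antibody to H3K4me3 and 2 of input DNA. All 6 were untreated cells of strain 129Sv/J. In the cells, Tex10 carries the HA tag at its C terminus, and the tag antibody stands in for one to Tex10. No untagged control sample was analysed here. The deposited lists used here hold 1 set of intervals per antibody, with no score, and no value of a single sample. The spread between samples and the depth behind each interval are therefore unknown, and no test compares groups.

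In mouse pluripotent cells, Oct4 (the product of Pou5f1), Sox2 and Nanog bind enhancers of their own and of each other's genes and hold the undifferentiated state. Klf4, Esrrb and Tfcp2l1 are factors of the naive state, Zfp42 (Rex1) is a zinc finger protein widely used as a marker of that state, and Tet1 oxidises methylated cytosine in DNA. Germ cell precursors keep or regain expression of several of these genes. Tex10 is a nuclear protein of a complex that acts in ribosome assembly, and it has also been studied at enhancers of pluripotency genes. H3K4me3 marks nucleosomes at active and poised promoters.

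None of the 8 genes carried HA-Tex10 within 1 kb of its TSS, while 4 of them had 1 interval each elsewhere in the wider window: Pou5f1, Nanog, Zfp42 and Tet1. The Nanog interval lay 4552 bp upstream of the gene, inside a separate H3K4me3 interval. That of Zfp42 lay 14191 bp upstream, that of Pou5f1 3005 bp past the end of the gene, and that of Tet1 11912 bp past the end, at the promoter of the next gene. Sox2, Klf4, Esrrb and Tfcp2l1 had none. H3K4me3 was present within 1 kb of a TSS of all 8 genes. The widest such interval of each gene ranged from 867 bp at Tfcp2l1 to 6675 bp at Sox2.

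The sequences under these HA-Tex10 intervals are shown because they are the only places in the windows of the 8 genes where the deposited list has the protein. Each is the central 200 bp of an interval, read from the GRCm38.p6 reference on the plus strand, 5′ to 3′. The reference is not the strain of the cells. Capitals mark matches to the 12 motifs searched, described further on. The Zfp42 interval itself is only 63 bp wide and takes up bases 69 to 131 of its window. The other 3 intervals fill their windows.
Pou5f1, chr17:35513780-35513979: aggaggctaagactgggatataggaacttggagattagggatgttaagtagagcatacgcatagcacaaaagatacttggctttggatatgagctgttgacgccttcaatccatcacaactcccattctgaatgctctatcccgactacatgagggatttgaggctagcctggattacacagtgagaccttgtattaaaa
Nanog, chr6:122702685-122702884: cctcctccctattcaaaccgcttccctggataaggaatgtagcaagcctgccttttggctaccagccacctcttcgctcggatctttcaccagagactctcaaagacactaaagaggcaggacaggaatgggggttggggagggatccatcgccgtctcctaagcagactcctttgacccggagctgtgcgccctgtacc
Zfp42, chr8:43321103-43321302: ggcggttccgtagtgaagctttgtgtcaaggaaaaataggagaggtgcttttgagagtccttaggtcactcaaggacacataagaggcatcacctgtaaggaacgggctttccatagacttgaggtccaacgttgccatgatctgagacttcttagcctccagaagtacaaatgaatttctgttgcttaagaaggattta
Tet1, chr10:62792381-62792580: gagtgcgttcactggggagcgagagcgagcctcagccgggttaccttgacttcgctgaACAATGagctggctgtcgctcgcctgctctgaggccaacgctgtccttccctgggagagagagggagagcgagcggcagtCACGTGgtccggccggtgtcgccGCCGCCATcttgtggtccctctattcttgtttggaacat

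The cell type label was checked against marker genes by H3K4me3 alone, since no expression was measured. Of 7 germ cell precursor markers, 5 had H3K4me3 within 1 kb of a TSS (Prdm1, Prdm14, Tfap2c, Kit and T), and Dppa3 and Nanos3 had none. All 5 markers of epiblast-like cells had it, as did 6 of 12 markers of other cell types (Myod1, Cdx2, Gata4, Gata6, Sox17 and Foxa2). The mark also occurs at promoters that are not transcribed, so these counts do not separate cell types.

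At promoters, 0 of 8 genes had HA-Tex10. This allows a share of up to 37.5% by a limit of 3 counts, or 32.4% by the 95% Wilson interval. Of all 21853 protein-coding genes, 8.66% had an interval within 1 kb of a TSS, and of the 13306 genes with H3K4me3 there 13.9% did. Both shares lie below either limit for 0 of 8, so a lower share at the core factors was not detectable with so few genes. H3K4me3 was within 1 kb of a TSS at 8 of 8 genes (95% Wilson interval 67.6 to 100%), against 60.9% of all genes. In the gene body plus 20 kb, 4 of 8 genes had HA-Tex10 (Wilson interval 21.5 to 78.5%), against 21.6% of all genes, and 8 of 8 had H3K4me3, against 75.1%. The median window was 49.5 kb for the 8 genes and 57.4 kb for all genes. These intervals cover the counting of genes only, and the differences were not tested, since the genes were picked with earlier results of these data known.

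**Figure D1:**
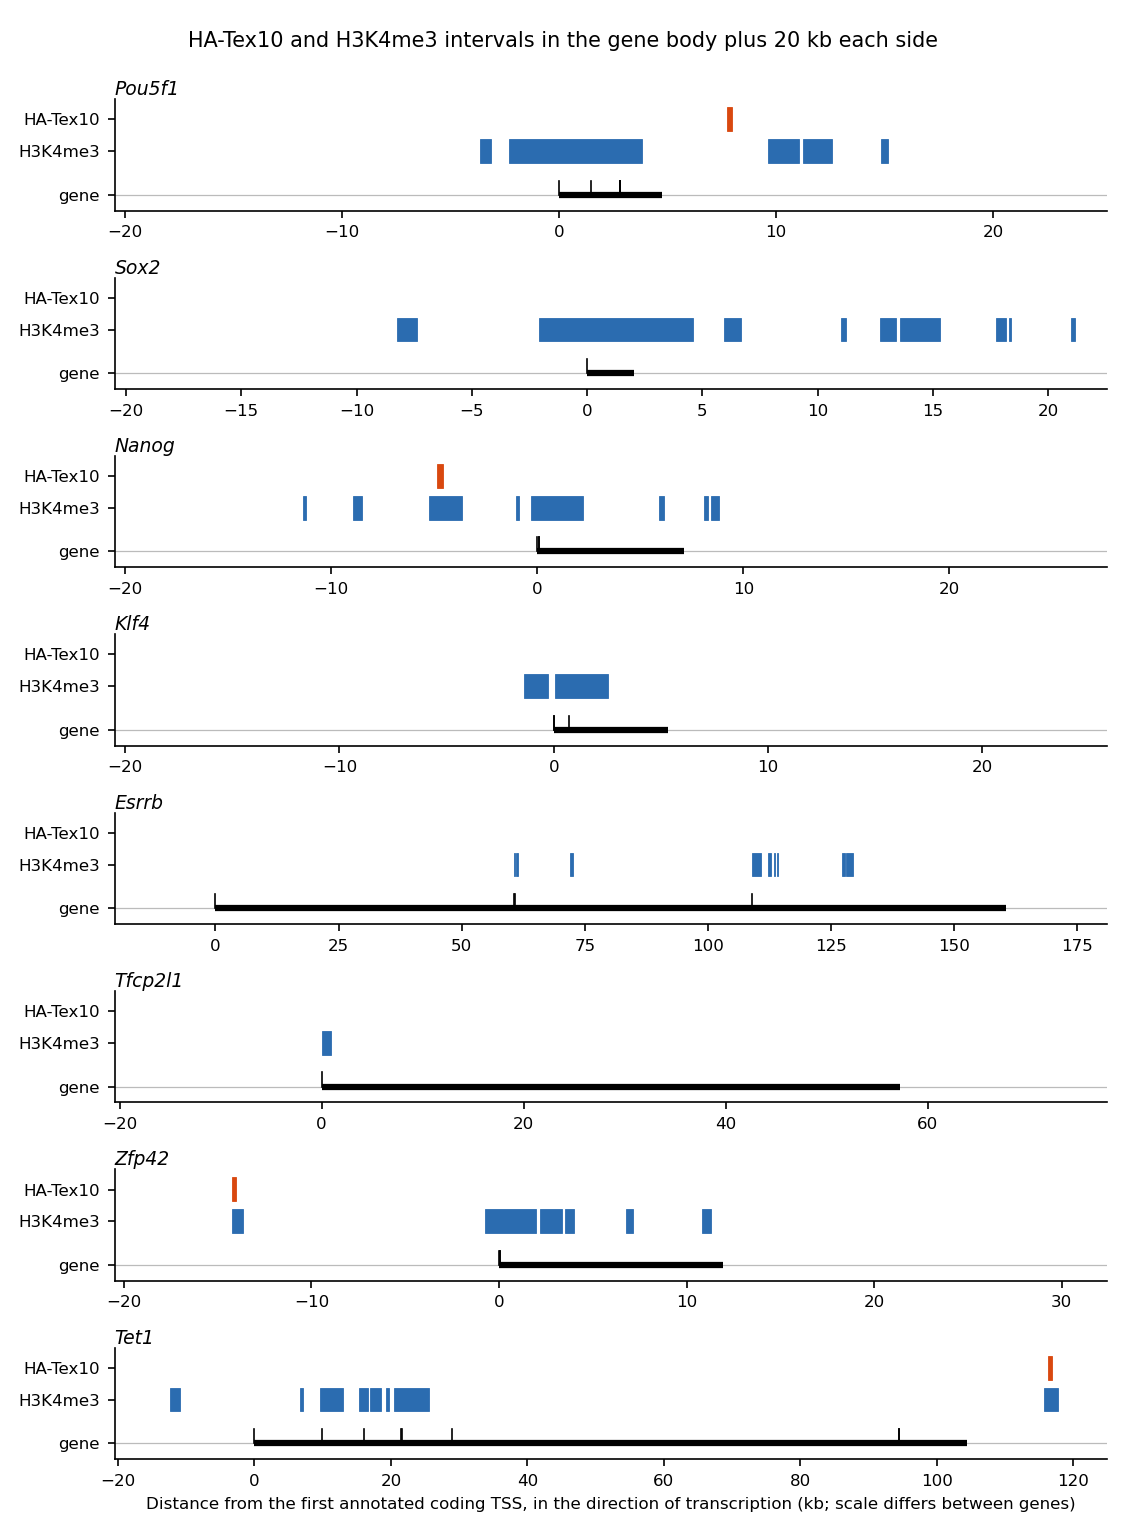
Deposited intervals around the 8 genes, 1 panel per gene. The horizontal axis is the distance in kb from the first annotated coding TSS in the direction of transcription, with a scale that differs between panels. Black bars are gene bodies with a tick at each coding TSS, blue boxes are H3K4me3 intervals to scale, and orange boxes are HA-Tex10 intervals, drawn wider than to scale where they would not be visible. HA-Tex10 boxes appear at Pou5f1, Nanog, Zfp42 and Tet1, and none lies over a TSS of the gene shown.

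Nanog encodes a homeodomain factor (ENSMUSG00000012396.12, chr6:122707489-122714633, plus strand). Its HA-Tex10 interval, chr6:122702631-122702937, was 307 bp wide, which is wider than or equal to 71.7% of all HA-Tex10 intervals on the assembled chromosomes. It is intergenic, and the nearest coding TSS is that of Nanog. All of it lay inside an H3K4me3 interval of 1575 bp, chr6:122702259-122703833, starting 372 bp from its left edge and ending 896 bp from its right edge. This H3K4me3 interval ended 3656 bp upstream of the gene and was separate from the promoter interval, so both signals met at an upstream element and not at the TSS. Of the 32-base words of the HA-Tex10 interval, 0% occurred more than once in the reference, so its position is that of a single-copy sequence. Nanog is known to have an enhancer a few kb upstream of its promoter. The reference files hold no enhancer positions, so the interval was not matched to it.

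At Pou5f1 (ENSMUSG00000024406.16, chr17:35506018-35510772, plus strand), which encodes Oct4, the HA-Tex10 interval was chr17:35513777-35513982, 206 bp wide. Its centre falls in an intron of the neighbouring gene Tcf19, 2565 bp inside that gene from its nearest TSS. It met no H3K4me3 interval. The gap was 3922 bp to the large Pou5f1 interval on one side and 1683 bp to the interval over the Tcf19 TSS on the other. The interval thus lay between the marked promoters of both genes, nearer to that of Tcf19. The known enhancers of Pou5f1 lie upstream of its promoter, and no HA-Tex10 interval occurred within 66.2 kb upstream of the gene. The next one on that side, at H2-Q7, was 62.5% repeated in its 32-base words.

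Zfp42 (ENSMUSG00000051176.6, chr8:43295063-43306980, minus strand) had its HA-Tex10 interval at chr8:43321171-43321233. At 63 bp it was among the narrow ones of the list, at the 8.19th percentile of width. Of its bases, 85.7% (54 bp) lay in an H3K4me3 interval of 606 bp, chr8:43320619-43321224, and it ran 9 bp past the edge. Both are intergenic, in sequence that occurs once, and the nearest coding TSS is that of Zfp42. Chromosome 8 is rich in HA-Tex10 intervals: 58.2% of its 1037 coding genes had one in the gene body plus 20 kb, against 19.8% of genes on the other chromosomes. The part of this in the Zfp42 interval was not tested.

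The Tet1 interval belongs to another promoter by position. Tet1 (ENSMUSG00000047146.17, chr10:62804570-62908996, minus strand) ends 11912 bp from the HA-Tex10 interval chr10:62792302-62792658, which is 357 bp wide and lies 16 bp upstream of a TSS of Ccar1, a cell cycle and apoptosis regulator gene. The whole interval lay inside an H3K4me3 interval of 2051 bp that covers the Ccar1 TSS. Counting only intervals whose nearest coding TSS is that of the member leaves Nanog and Zfp42. No share of all coding genes was computed under this rule, so that count has no background here.

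In all, 3 of the 4 HA-Tex10 intervals in these windows overlapped H3K4me3, against 69.3% of the 4238 HA-Tex10 intervals on the assembled chromosomes. None of the 4 was mostly repeated (over 50% of 32-base words found more than once), against 39.7% of the whole list. Their GC contents were 43.2% at Pou5f1, 49.2% at Zfp42, 53.7% at Nanog and 61.9% at Tet1, with a median of 59.04% over the list. The interval at the Ccar1 promoter was thus the one with GC content above the median. Per length, the 8 windows held 5.94 HA-Tex10 intervals per Mb, and the merged windows of all coding genes held 2.26 per Mb.

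Sox2 (ENSMUSG00000074637.7, chr3:34650405-34652461, plus strand), a partner of Oct4 on DNA, had no HA-Tex10 interval in its window. Of the nearest ones on each side, the closer was nearer than the median over all coding genes (74.1 kb against 146.5 kb). The upstream one, chr3:34576220-34576344, was 74.1 kb from the gene, in an intron of the overlapping noncoding gene Sox2ot. The downstream one, chr3:34761338-34761566, lay 108.9 kb past the end of the gene and 110.9 kb from its TSS, between genes. For both, Sox2 was the gene with the nearest coding TSS, no H3K4me3 interval overlapped them and all 32-base words were single-copy. A distal enhancer cluster downstream of the gene, the Sox2 control region, is known from embryonic stem cells. Its position is not in the reference files, so no match was made. The central 200 bp of both intervals are shown for comparison with the intervals nearer to genes, and neither held a match to a motif searched. The upstream interval takes up bases 38 to 162 of its window.
Sox2 upstream, chr3:34576183-34576382: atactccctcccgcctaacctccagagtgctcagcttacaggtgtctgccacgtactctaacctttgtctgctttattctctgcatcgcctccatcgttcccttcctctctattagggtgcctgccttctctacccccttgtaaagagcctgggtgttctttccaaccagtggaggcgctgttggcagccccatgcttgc
Sox2 downstream, chr3:34761353-34761552: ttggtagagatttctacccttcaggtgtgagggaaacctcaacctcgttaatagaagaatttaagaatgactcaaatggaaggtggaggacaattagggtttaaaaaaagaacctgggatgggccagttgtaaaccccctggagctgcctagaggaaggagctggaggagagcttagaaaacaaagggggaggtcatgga

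For the other genes without HA-Tex10 in the window, the nearest interval was 168.5 kb away at Tfcp2l1, 205.01 kb at Esrrb and 334.5 kb at Klf4. The Tfcp2l1 neighbour lay upstream, in an intron of Clasp1, and the Esrrb neighbour downstream, 179 bp upstream of a TSS of Angel1. The neighbour of Klf4 lay entirely in repeated sequence, with 100% of its 32-base words found more than once. Over the 8 genes the distance from gene body to nearest interval had a median of 44.1 kb, against 146.5 kb over all coding genes, and 5 of the 8 were nearer than that median. Pou5f1, Nanog, Tet1 and Zfp42 stood at the 13.3rd, 14.0th, 17.9th and 19.0th percentiles of distance, Sox2 at the 37.7th and the other 3 between the 52.8th and 67.1st.

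**Figure D2:**
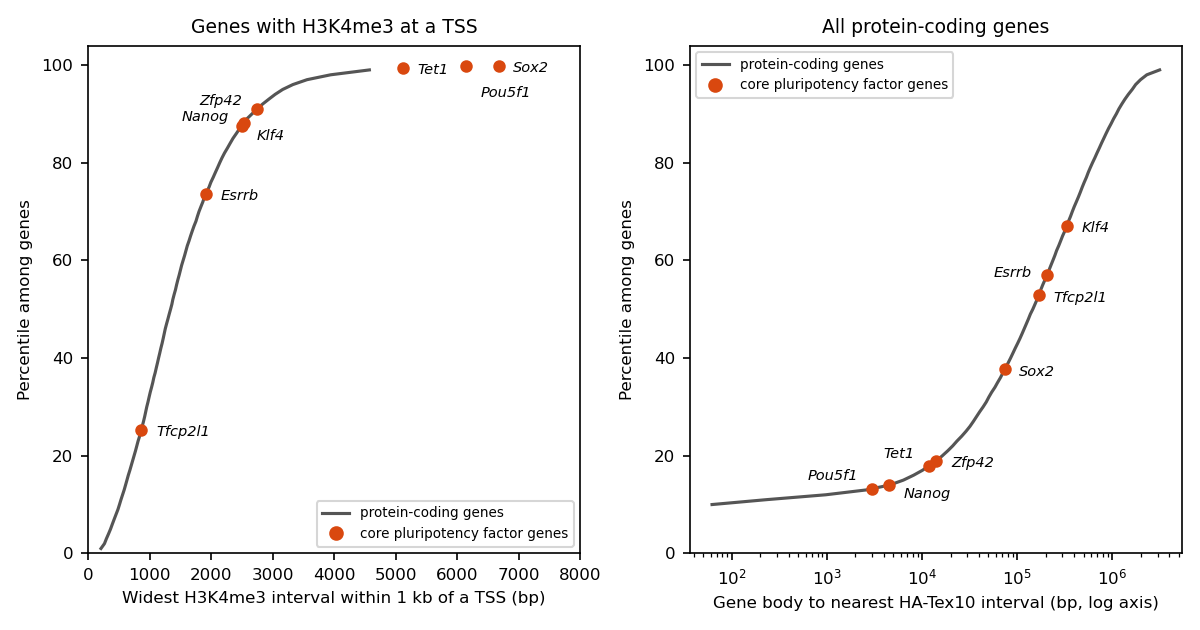
Left, the width in bp of the widest H3K4me3 interval within 1 kb of a TSS against its percentile among the 13306 genes with such an interval. Right, the distance in bp from the gene body to the nearest HA-Tex10 interval, on a log axis, against its percentile among 21853 genes. The grey lines join the 1st to 99th percentiles of all genes (at right, distances above 0 only) and the orange points are the 8 genes. Sox2, Pou5f1 and Tet1 lie past the 99th percentile of width, and Pou5f1, Nanog, Tet1 and Zfp42 lie within the nearest 20% in distance.

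The promoters of the core factors carried H3K4me3 intervals of very unequal width. The widest interval at a TSS measured 6675 bp at Sox2, 6136 bp at Pou5f1 and 5112 bp at Tet1, which put these genes at the 99.9th, 99.8th and 99.4th percentiles of the genes with the mark. Zfp42 followed with 2744 bp, Nanog with 2531 bp and Klf4 with 2501 bp, at the 91.0th, 88.1st and 87.6th percentiles. Esrrb had 1917 bp (73.6th) and Tfcp2l1 867 bp (25.3rd). The median over the 8 genes was 2637.5 bp, against 1342 bp over all genes with the mark, and 7 of the 8 exceeded the latter. Tfcp2l1 was the exception.

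At Sox2 and Pou5f1, single intervals covered more than the transcription unit's start. The Sox2 interval, chr3:34648329-34655003, reached 2076 bp upstream and 4598 bp downstream of the TSS, past the end of this short gene. The Pou5f1 interval, chr17:35503720-35509855, reached 2298 bp upstream and 3837 bp downstream of the first TSS and held all 6 annotated coding TSS. The intervals of Nanog and Zfp42 lay mostly downstream, with 284 bp upstream and 2246 bp downstream at Nanog and 759 and 1984 bp at Zfp42. Over the 9775 genes whose first coding TSS lay in an interval, the medians were 402 bp upstream and 996 bp downstream.

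Klf4 (ENSMUSG00000003032.8, chr4:55527143-55532466, minus strand) had its first pair of TSS in a gap between intervals. The gap was 315 bp, with an interval of 2501 bp on the gene side and one of 1132 bp upstream. The only TSS of Tfcp2l1 (ENSMUSG00000026380.10, chr1:118627945-118685168, plus strand) lay 28 bp outside its interval, chr1:118627974-118628840, which was the one H3K4me3 interval in its 97224 bp window. The first TSS of both genes thus lay just beside a marked stretch.

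Esrrb and Tet1, whose annotated TSS are spread over the gene, carried the mark at some of them only. Esrrb (ENSMUSG00000021255.17, chr12:86361117-86521628, plus strand), an orphan nuclear receptor gene, has 4 distinct coding TSS. Its first, at position 86361117, had no H3K4me3 interval within 40026 bp. The pair at 60527 and 60766 bp from it had intervals of 220 and 392 bp within 1 kb, and the widest interval, chr12:86470014-86471930, covered the TSS 109000 bp downstream of the first. Tet1 has 8 distinct coding TSS, of which 4 lay inside H3K4me3, at 9878, 16010, 21484 and 21672 bp from the first. The first one (6709 bp from the nearest interval), the one at 28982 bp and the pair at 94456 and 94457 bp lay outside. A run of 6 intervals covered 65.5% of 18.8 kb around the marked Tet1 TSS, the widest being chr10:62883456-62888567. Over the 8 genes, 20 of 29 coding TSS lay in an interval and 24 had one within 1 kb, against 45.6% and 56.9% of the 54361 coding TSS of all genes. All but 1 of the 5 TSS with none within 1 kb were Tet1 TSS, the other being the first of Esrrb.

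**Figure D3:**
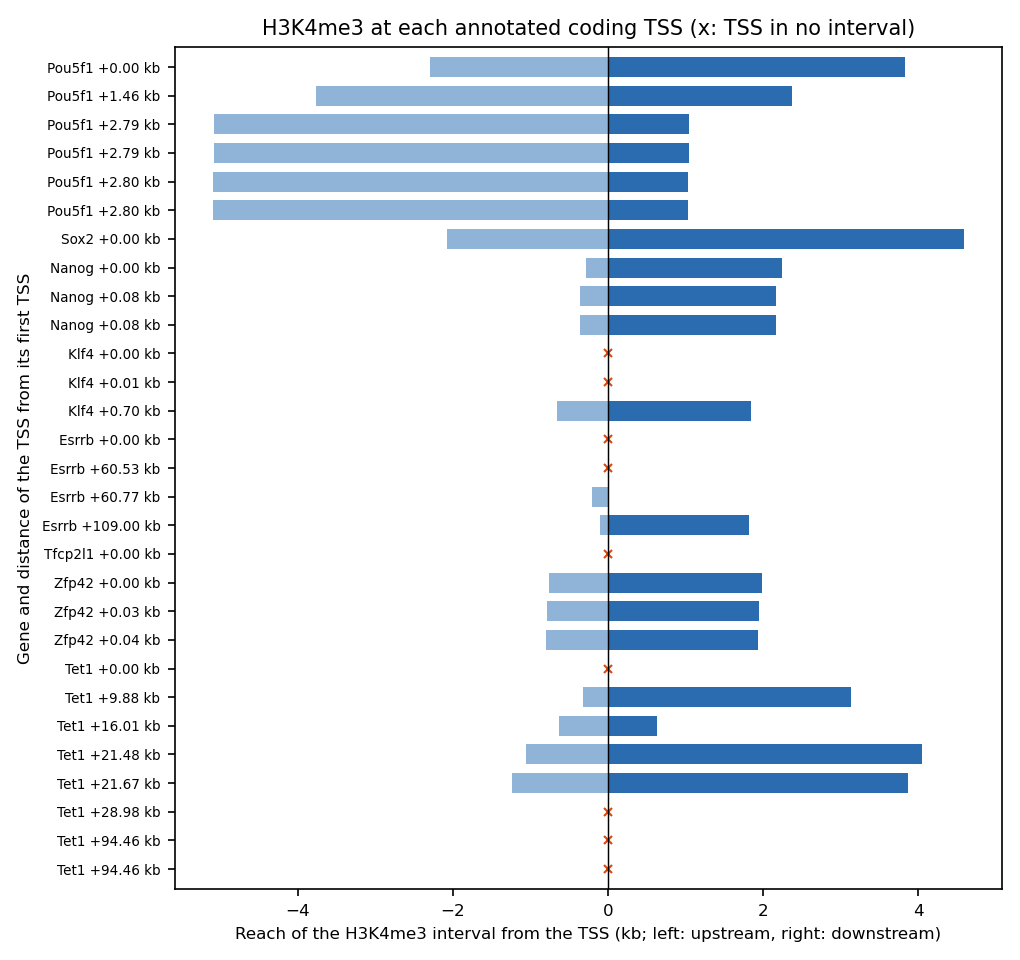
H3K4me3 at each of the 29 annotated coding TSS of the 8 genes, labelled by the distance in kb from the gene's first TSS. Bars show how far in kb the interval that holds the TSS reaches upstream (light) and downstream (dark), and an orange x marks a TSS that lies in no interval. All TSS of Pou5f1, Sox2, Nanog and Zfp42 have bars, and 4 of 8 Tet1 TSS and 2 of 4 Esrrb TSS do.

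Most H3K4me3 intervals in these windows lay more than 1 kb from any coding TSS of the gene itself. The windows held 48 intervals, 15 of them within 1 kb of a TSS of the gene (median width 1917 bp) and 33 farther off (median 474 bp, range 103 to 2051 bp). Of the 33, 28 had the member's own TSS as nearest coding TSS. The other 5 belonged by position to neighbours: Tcf19 and Cchcr1 beside Pou5f1, and Ccar1 and Slc25a16 beside Tet1. Of these 5, 4 lay within 1 kb of the neighbour's TSS, the one of 2051 bp at Ccar1 among them. The same split by distance was not computed for the windows of all coding genes, so it has no background here. Sox2 and Esrrb had the most intervals, 9 each, followed by Nanog and Tet1 with 8, Zfp42 with 6, Pou5f1 with 5, Klf4 with 2 and Tfcp2l1 with 1. The median was 7, against 2 over all coding genes. At Sox2, 7 of the 9 lay downstream of the gene, within Sox2ot, up to 18930 bp past its end. At Esrrb all 9 lay inside the gene body.

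By coverage, H3K4me3 occupied 27.7% of the Sox2 window, 21.6% at Pou5f1, 11.8% at Nanog, 11.3% at Zfp42, 10.95% at Tet1, 8.02% at Klf4, 2.89% at Esrrb and 0.892% at Tfcp2l1. The median gene had 2.01%, and 5 of the 8 exceeded the 90th percentile of genes, 9.50%. The 32 other pluripotency network genes, described further on, had medians of 9.61% coverage and 5 intervals per window. High coverage was thus not particular to the core factors. Per length, the windows of the 8 genes held 71.3 H3K4me3 intervals per Mb, against 17.1 per Mb in the merged windows of all coding genes. Of the 48 intervals, 3 met HA-Tex10 (6.25%), against 9.43% of all 29002 H3K4me3 intervals on the assembled chromosomes. At Nanog, the outermost upstream pair of H3K4me3 intervals fell on the processed pseudogenes Gm10420 and Gm10224 and was mostly repeated (100% and 83.8% of 32-base words). No other of the 48 intervals was.

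**Figure D4:**
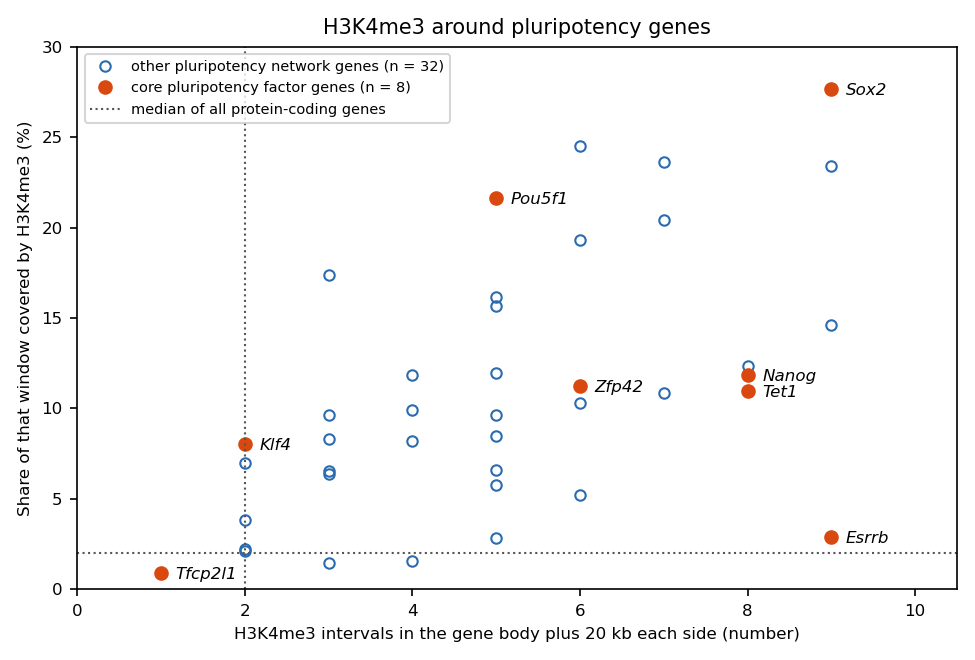
Number of H3K4me3 intervals in the gene body plus 20 kb each side against the percent of that window they cover. Filled points are the 8 core factor genes, open points are the 32 other pluripotency network genes and the dotted lines are the medians of all coding genes, 2 intervals and 2.01%. Sox2 is highest on both axes, with Esrrb level with it in number but low in coverage, and Tfcp2l1 lies below both lines.

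Wider network genes were compared from a list of 32: naive-state and germ cell genes, LIF pathway receptors and signals, and primed-state genes. H3K4me3 lay within 1 kb of a TSS at 31 of them, all but Dppa3, with a median widest interval of 2980 bp. HA-Tex10 lay within 1 kb of a TSS at 5: Klf2, Tbx3, Sall4, Il6st (the signalling receptor subunit for LIF) and Thap11. A further 6 had it elsewhere in the window (Dppa3, Tdgf1, Stat3, Gdf3, Lefty1 and Trim28) and 21 had none. Klf2 and Thap11 are on chromosome 8, which is rich in HA-Tex10 intervals, and the part of this was not tested. The Il6st interval, chr13:112463948-112464043, was 96 bp wide and 27 bp upstream of a TSS. At Tdgf1, a coreceptor gene for Nodal, the interval was 472 bp wide and 1122 bp upstream, just outside the promoter window. It overlapped an H3K4me3 interval. The widest H3K4me3 interval within 1 kb of a TSS of Tdgf1 measured 5399 bp. One entirely repeated HA-Tex10 interval served both Dppa3 and Gdf3. The median distance to the nearest HA-Tex10 interval was 155.5 kb for the network genes.

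The pattern of Pou5f1, Nanog, Zfp42 and Tet1, with H3K4me3 at a TSS and HA-Tex10 only elsewhere in the window, was that of 4 of the 8 core factor genes. It was found at 5 of 32 network genes (15.6%: Tdgf1, Stat3, Gdf3, Lefty1 and Trim28) and at 2016 of 21853 coding genes (9.23%). That of Sox2, Klf4, Esrrb and Tfcp2l1, with H3K4me3 and no HA-Tex10, was found at 21 of 32 network genes (65.6%) and 9434 of all coding genes (43.2%). Promoter HA-Tex10 with H3K4me3 occurred at 0 of the 8, at 5 of 32 network genes (15.6%) and at 1856 of all coding genes (8.49%). These shares were not tested, and they count every HA-Tex10 interval, whatever its repeat content or nearest TSS. Among the network genes of the first pattern, the Gdf3 and Lefty1 intervals were mostly repeated (100% and 61.0%). The Trim28 interval lay over a TSS of Zbtb45, and that of Stat3 was nearest to Cavin1. The Pou5f1 and Tet1 intervals were nearest to Tcf19 and Ccar1. Those of Tdgf1, Nanog and Zfp42 were single-copy and nearest to their own gene.

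A set of 12 motifs, of some of the factors and of other DNA-binding proteins, was searched as exact words on both strands. It held no word for Nanog or Tfcp2l1. The words were ATGCAAAT (OCT octamer), TGTNATGCA (OCT-SOX composite), CATTGT (SOX), GGGNGTGG (KLF), TCAAGGTCA (ESRRB), TTCCNGGAA (STAT), ATGGCGGC (YY1/ZFP42), ATCAAAG (TCF/LEF), CACGTG (E-box), GCGCATGCG (NRF1), GGGGCGGGG (SP GC box) and CCAAT (NFY). The windows of Pou5f1, Nanog and Zfp42 held none of the 12. The window of Tet1, at the Ccar1 promoter, held a SOX word at bases 59 to 64, an E-box at 139 to 144 and a YY1/ZFP42 word at 162 to 169. These words occurred in 4.11%, 4.84% and 1.79% of the central windows of all 4238 HA-Tex10 intervals. Over the 2556 intervals that were not mostly repeated, the shares were 4.73%, 6.73% and 2.46%. The OCT-SOX composite occurred in 0.307% of all 4238 windows and in 0.391% of the 2556. The octamer occurred in 1.16% and 0.861%.

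Promoters from the RefSeq table for GRCm38.p6 cover 250 bases before and 50 after a gene's start, and all 8 genes matched, with 11 promoters. For Nanog, Zfp42 and Klf4, 1 promoter each is shown as an example. Nanog and Zfp42 are the genes with an OCT-SOX composite or an octamer in a promoter. A second, overlapping Nanog promoter, chr6:122707315-122707614, holds the same composite and is not shown. The promoter of Klf4 starts in the gap between H3K4me3 intervals described above. Each is printed on the strand of its gene, 5′ to 3′, with capitals for motif matches.
Nanog, chr6:122707239-122707538, plus strand: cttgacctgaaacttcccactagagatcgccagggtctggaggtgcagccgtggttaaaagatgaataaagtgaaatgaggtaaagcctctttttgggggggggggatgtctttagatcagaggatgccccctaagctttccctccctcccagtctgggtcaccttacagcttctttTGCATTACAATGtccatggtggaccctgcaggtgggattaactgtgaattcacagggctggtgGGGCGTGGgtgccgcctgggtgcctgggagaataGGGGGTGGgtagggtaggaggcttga
Zfp42, chr8:43306960-43307259, minus strand: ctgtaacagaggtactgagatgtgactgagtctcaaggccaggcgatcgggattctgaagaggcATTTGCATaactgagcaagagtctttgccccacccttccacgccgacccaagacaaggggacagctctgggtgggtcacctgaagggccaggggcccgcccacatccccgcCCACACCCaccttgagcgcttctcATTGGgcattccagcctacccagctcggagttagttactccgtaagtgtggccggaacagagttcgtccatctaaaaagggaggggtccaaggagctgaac
Klf4, chr4:55532426-55532725, minus strand: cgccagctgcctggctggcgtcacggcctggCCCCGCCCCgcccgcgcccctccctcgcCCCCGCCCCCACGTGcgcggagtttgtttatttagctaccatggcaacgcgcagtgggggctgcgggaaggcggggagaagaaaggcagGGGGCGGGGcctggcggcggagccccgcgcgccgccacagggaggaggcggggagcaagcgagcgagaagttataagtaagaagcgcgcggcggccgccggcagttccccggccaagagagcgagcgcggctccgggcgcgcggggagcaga

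In the Nanog promoter shown, an OCT-SOX composite at bases 178 to 186 overlapped a SOX word at 184 to 189. KLF words stood at 241 to 248 and 275 to 282. The composite was found in 0.801% of the 32851 promoters of the table. The Zfp42 promoter held the octamer at bases 65 to 72 (1.74% of promoters), with a KLF word at 176 to 183 (17.6%) and an NFY word at 200 to 204 (37.4%). The Klf4 promoter held 3 SP GC boxes (11.4%), at bases 32 to 40, 60 to 68 and 149 to 157, and an E-box at 69 to 74 (7.15%) directly after one of them. The octamer and the composite were thus found in a promoter of 1 core factor gene each, and the ESRRB, STAT, YY1/ZFP42, TCF/LEF and NRF1 words in none of the 11. A match describes the letters only.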

How the data were processed

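ChIP-seq intervals of HA-Tex10 and H3K4me3 in day 2 PGCLCs were used as deposited. Per the deposited files, each line holds interval bounds in bp, and the score and strand fields are blank. Bowtie2 2.3.4.3, SAMtools 1.9, MACS2 2.1.2, HOMER and the build mm10 are named per the submitters' processing notes, without roles. The threshold, the use of input and the handling of replicates are not given in the sources used here. A further list of HA-Tex10 intervals was not used here.

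Analysis was limited to 21 assembled chromosomes (4238 HA-Tex10 and 29002 H3K4me3 intervals), where 0 intervals ended past a GRCm38 chromosome end. TSS were taken from protein-coding transcripts of GENCODE M21, and overlap meant at least 1 bp. Percentiles give the share of genes or intervals at or below a value. Repeated 32-base words were counted on both strands of the reference, with intervals under 100 bp widened to 100 bp. Upper limits use 3 counts. Scripts ran in Python 3.11.15 with NumPy 2.4.6, pandas 2.3.3, SciPy 1.17.1 and numba 0.67.0, and the interval functions were tested on simulated data. All 8 genes are named, with network genes that had HA-Tex10 in the window. The members, gene lists and motifs were chosen with earlier results of these data known.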

Additional observations from a re-analysis of the deposited data

How the results depend on the processing

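No paired analysis was possible because the lists used do not separate replicates, and no replicate could be left out either. Of 30 alternative values, 21 stayed within 1.5 times the reported count (or equal, for the median width) and 9 moved. With a 5 kb TSS window, 2 genes had HA-Tex10 at a TSS (Pou5f1 and Nanog), where 1 kb and 2.5 kb gave 0. With flanks of 10 kb, 2 genes and 2 HA-Tex10 intervals remained, of which 1 overlapped H3K4me3. With intervals wider than the median of their list, 2 genes and 2 HA-Tex10 intervals remained and 22 H3K4me3 intervals. The median width at a TSS was 4351.5 bp after merging neighbours within 1 kb and 3188.5 bp as the sum of intervals. H3K4me3 was at a TSS of 8 genes under each alternative run on it. These alternative counts cover the 8 genes only. Shares of all coding genes at the same settings are not given, so the counts have no background here. The depth is unknown, so absence of an interval does not show absence of Tex10.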

Other observations

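The 5 markers of epiblast-like cells had H3K4me3 intervals of 2374 to 7855 bp at a TSS, and 1 of them, Dnmt3a, had HA-Tex10 in the gene body plus 20 kb. Otx2, a factor of the primed state, had the widest of the genes listed here, 7855 bp (99.97th percentile), and its nearest HA-Tex10 interval was 325.2 kb away. Fgf5 had 3344 bp and an interval 1946 kb away, and Dnmt3b, a DNA methyltransferase gene, had 3072 bp and one 578.2 kb away. Pou3f1 had 2374 bp and one 48.2 kb away. Dnmt3a, another DNA methyltransferase gene, had 3056 bp and an HA-Tex10 interval overlapping the gene body, more than 1 kb from its TSS. Among germ cell markers the widest H3K4me3 intervals at a TSS measured 1363 bp at Prdm1, 1367 bp at Prdm14, 812 bp at Tfap2c and 461 bp at T, with 2101 bp at Kit. Kit had HA-Tex10 within 1 kb of a TSS. Dppa3 and Nanos3 (on chromosome 8) had it elsewhere in the gene body plus 20 kb, and Prdm1, Prdm14, Tfap2c and T had none there. No test compares these genes.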
